A study of Mus musculus with 45 samples.

Results

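At the end of the time course, 78 h after day 2, neuroepithelial organoids that had received all-trans retinoic acid (RA) on day 2 were compared with organoids of the same age that had never received it. The organoids were made from R1, a wild-type line of mouse embryonic stem (ES) cells, and grew clonally in Matrigel in N2B27, a serum-free medium that lets ES cells take on neural fates. On day 2 the medium was replaced by N2B27 with 250 nM RA or by N2B27 alone, and no later removal of RA is given in the sources used here. Each arm at 78 h had 3 samples labelled as biological replicates, so that 6 of the 45 RNA-seq libraries of the series entered the comparison, and the remaining libraries are from day 2 and from 6 earlier time points. Both arms share the cell line, the matrix and the medium, and the line has a single genotype, so that replicates are separate cultures and not separate individuals. The treatment text in the sample labels gives the dose in µM and places the last time point 2 h later; the nM dose and the hours in the sample titles are used here. The comparison asks which identities the organoids of each arm had reached by then.

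RA is a signalling molecule made from vitamin A that enters the nucleus and binds RA receptors, transcription factors that sit on DNA as partners of the RXR receptors. In the embryo, it is made by the tissue beside the posterior hindbrain and spinal cord, activates the 3′ Hox genes in order along the chromosome, and is cleared by the enzymes of the Cyp26 family, which keep it out of the anterior brain. It is also needed for spinal neurons to form and for ventral progenitors to be specified.

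RA receptors are known to bind a DR5 element, a direct repeat of a hexamer with 5 bases between the repeats. The element was searched on both strands in the RefSeq promoter windows of the GRCm38.p6 build, which run from 250 bases before to 50 bases after a start. It was found in 32 of 32851 windows (0.0974%). Among the genes tested at 78 h that had a window, it was found for 1 of 909 genes called higher with RA, 0 of 456 called lower and 6 of 10586 not called. The gene called higher was Rarb, which encodes RA receptor beta, and Cyp26a1 was among those not called and encodes an RA-degrading enzyme. These stretches are shown because the 2 genes, both long known as direct RA targets, were called differently at 78 h. The 17-base element is in capitals, the strand is that of the gene, and the Cyp26a1 element reads in the reverse direction.
Rarb: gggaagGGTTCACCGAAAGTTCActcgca
Cyp26a1: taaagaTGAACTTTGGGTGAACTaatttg
The Rarb stretch lies at chr14:16575507-16575535 on the minus strand, 53 to 37 bases before the RefSeq start for the element itself, and overlaps an annotated exon of Rarb in the GENCODE M21 annotation. The Cyp26a1 stretch lies at chr19:37697770-37697798 on the plus strand, with the element 32 to 16 bases before the start, and its last base is the first annotated base of Cyp26a1. A match of letters is a description and not evidence of binding.

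The 3 RA-treated samples had 27862239 to 33546744 counts in genes, and the 3 untreated samples 26469692 to 36387691. Pearson's r of log2 CPM (counts scaled to the size of the library) between samples was 0.995 to 0.998 within an arm and 0.969 to 0.976 between arms, given as a description across genes. In both arms the markers of neural tube progenitors were present, and none of them was called: the summed level of Sox1, Sox2, Pax6, Nes and Cdh2 was 869 to 1018 CPM in untreated and 1009 to 1151 CPM in RA-treated organoids. The neuronal markers Tubb3, Elavl3, Dcx and Stmn2 summed to 248 to 264 CPM and 261 to 280 CPM, and the pluripotency markers Pou5f1, Nanog, Zfp42 and Esrrb to 407 to 488 CPM and 230 to 409 CPM. Both sums hide opposite movements. Tubb3 and Dcx were called higher with RA, Stmn2 was called lower, and Elavl3 was not called. Pou5f1 was called lower, while Nanog, Zfp42 and Esrrb had log2 fold changes above 0 (0.20, 0.68 and 0.76) and were not called. Markers of other lineages were lower, at 2.54 to 3.02 and 10.2 to 11.7 CPM for the 5 endoderm markers, 7.83 to 10.3 and 14.7 to 20.2 CPM for the 4 neural crest markers, 19 to 21.4 and 53.5 to 65.8 CPM for the 7 markers of mesoderm, vessel and blood, and 6.38 to 7.55 and 25.7 to 32.5 CPM for the 6 markers of surface ectoderm and trophoblast. Afp was at 0 in every untreated sample and Hbb-bh1 at 0 in every RA-treated sample, and Mesp1 had at most 1 count in any sample. The part of such cells in the differences below was not tested. Since the organoids were sequenced whole, fewer cells of a type and less RNA per cell cannot be told apart.

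Of 17059 genes tested, 1307 (7.66%) were called higher with RA and 688 (4.03%) lower. The test was edgeR's quasi-likelihood test on the 6 libraries, and a call needed a p under 0.01 after Benjamini-Hochberg adjustment over all genes tested, together with a log2 fold change beyond 1 in either direction. The samples of the arms did not overlap, with RA above, for 27.9% of the genes tested, and with RA below for 27.4%, so that many genes without a call were also apart. "Rose" and "fell" below mean called. Counts by list are to be read beside the shares of all genes tested, 7.66% higher and 4.03% lower. Levels are CPM, errors of levels are SD over 3 samples, and errors of log2 fold changes are SE.

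**Figure D1:**
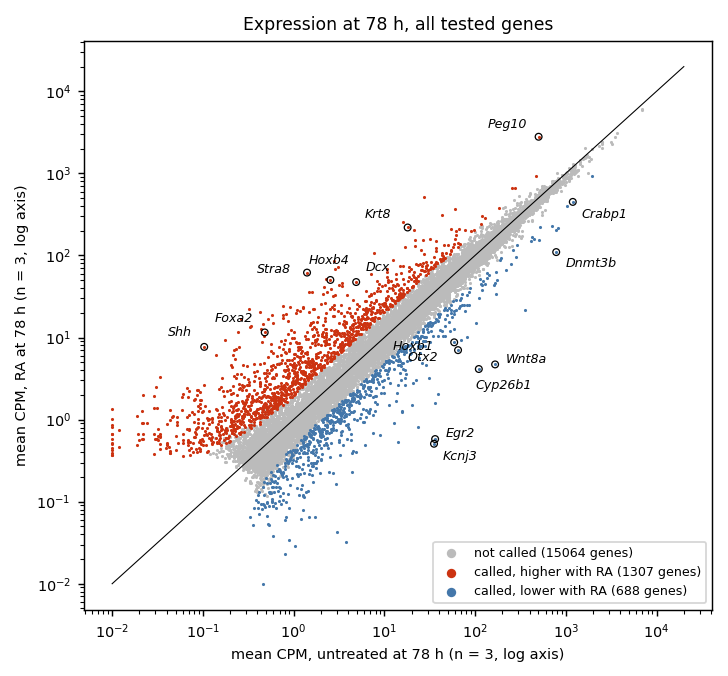
Mean CPM of every tested gene in untreated (x axis) and RA-treated organoids (y axis) at 78 h, n = 3 each, both axes logarithmic, with means under 0.01 drawn at 0.01. The 1307 genes called higher with RA (red) include Hoxb4, Stra8, Foxa2, Krt8 and Peg10, and the 688 called lower (blue) include Egr2, Kcnj3, Cyp26b1, Wnt8a and Dnmt3b.

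Hox genes, the transcription factors that set position along the body axis, were mostly higher with RA. Of 39 Hox genes, 25 passed the filter on low counts, 15 rose, only Hoxb1 fell, and 9 were not called. The other 14 had at most 17 counts in any sample of either arm. By cluster, 4 of 7 tested genes rose in Hoxa, 6 of 9 in Hoxb, 2 of 6 in Hoxc and 3 of 3 in Hoxd.

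The Hoxb cluster on chromosome 11, which was measured from Hoxb1 (chr11:96365752-96368256, GRCm38) to Hoxb9 (chr11:96271457-96276595), shows the pattern gene by gene. Hoxb1, the hindbrain gene at the 3′ end of the cluster, was at 57.1, 62.1 and 57.5 CPM in the untreated samples and 12.5, 6.86 and 6.86 CPM in the RA-treated samples. It was low in every RA-treated sample, with a log2 fold change -2.72 ± 0.17, adjusted p = 3.1e-07. Hoxb2, the neighbour of Hoxb1, was at 67.1, 67.4 and 70.0 CPM in the untreated samples and 40.7, 43.8 and 46.0 CPM in the RA-treated samples, and the arms did not overlap, although the difference stayed under the fold threshold (log2 fold change -0.63 ± 0.06, adjusted p = 7.0e-06). Hoxb3 was at 10.9, 9.55 and 11.5 CPM in the untreated samples and 55.2, 57.9 and 76.9 CPM in the RA-treated samples (log2 fold change 2.59 ± 0.13, adjusted p = 4.5e-08). Hoxb4, which marks the posterior hindbrain and the levels behind it, was at 2.84, 2.56 and 2.23 CPM in the untreated samples and 46.2, 47.6 and 57.0 CPM in the RA-treated samples. It rose about as much in all 3 samples, with a log2 fold change 4.33 ± 0.12, adjusted p = 6.4e-10. Hoxb5 was at 0.324, 0.238 and 0.167 CPM in the untreated samples and 9.38, 8.67 and 16.8 CPM in the RA-treated samples (log2 fold change 5.6 ± 0.36, adjusted p = 3.2e-07), the largest log2 fold change of any Hox gene. Hoxb6, Hoxb7 and Hoxb8 rose with log2 fold changes of 3.08, 2.42 and 2.54. At the 5′ end, Hoxb9, a gene of thoracic levels, was at 16, 16.9 and 20.1 CPM in the untreated samples and 27.3, 14.5 and 16 CPM in the RA-treated samples. The arms overlapped and Hoxb9 was not called (log2 fold change 0.15 ± 0.19, adjusted p = 0.57).

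Between genes, levels are compared per kb of exon. In untreated organoids Hoxb1 (25.4 CPM per kb) and Hoxb2 (19.5) were the highest of the cluster, and Hoxb3 to Hoxb8 lay between 0.0872 (Hoxb5) and 2.50 (Hoxb3). In RA-treated organoids Hoxb4 (19.6 CPM per kb) was the highest, followed by Hoxb3 (14.9), Hoxb8 (13.9) and Hoxb2 (12.5), and Hoxb1 (3.76) was the lowest. Within the RA arm, the samples of each gene overlapped those of the next in this order, so that neighbours in it were not apart. Some genes further from each other in the order, such as Hoxb4 and Hoxb2, did not overlap. In untreated organoids only Hoxb3 and Hoxb8 overlapped.

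Among the genes of the other clusters that rose were Hoxa4, Hoxa5, Hoxa7, Hoxc4, Hoxc5, Hoxd1, Hoxd3 and Hoxd8. Hoxa4 and Hoxa5 rose from 0.557 to 8.36 CPM and from 1.02 to 9.99 CPM, with log2 fold changes of 3.94 and 3.31. Hoxc4 rose from 1.62 to 22.4 CPM and Hoxc5 from 0.585 to 18.7 CPM, while Hoxc6 was at 2.19, 1.78 and 2.54 CPM in the untreated samples and 3.82, 1.84 and 2.14 CPM in the RA-treated samples and was not called (log2 fold change 0.29 ± 0.27, adjusted p = 0.41). Hoxd3 was at 0.432, 0.416 and 0.446 CPM in the untreated samples and 20.2, 19.4 and 22.0 CPM in the RA-treated samples (log2 fold change 5.58 ± 0.14, adjusted p = 3.6e-10). Hoxa2, a hindbrain gene, was at 21.1, 22.0 and 27.7 CPM in the untreated samples and 18.6, 18.8 and 21.3 CPM in the RA-treated samples, and the arms overlapped.

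Hoxa9, Hoxc8 and Hoxc9 turned on a single library. In RA replicate 1, Hoxa9 was at 0.637 CPM against 0.239 and 0.210 in the other RA-treated samples, Hoxc8 at 2.00 against 0.410 and 0.910, and Hoxc9 at 1.13 against 0.239 and 0.280. With all samples none of the 3 was called, and the log2 fold changes were -1.28, -0.87 and -0.73. Without RA replicate 1 they were -2.0, -1.64 and -1.85, with adjusted p = 0.0015, 0.0013 and 0.003, which would call all 3 lower. Hoxb9 and Hoxc6, also highest in that library, turned to -0.19 and -0.11 without it and stayed uncalled.

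**Figure D2:**
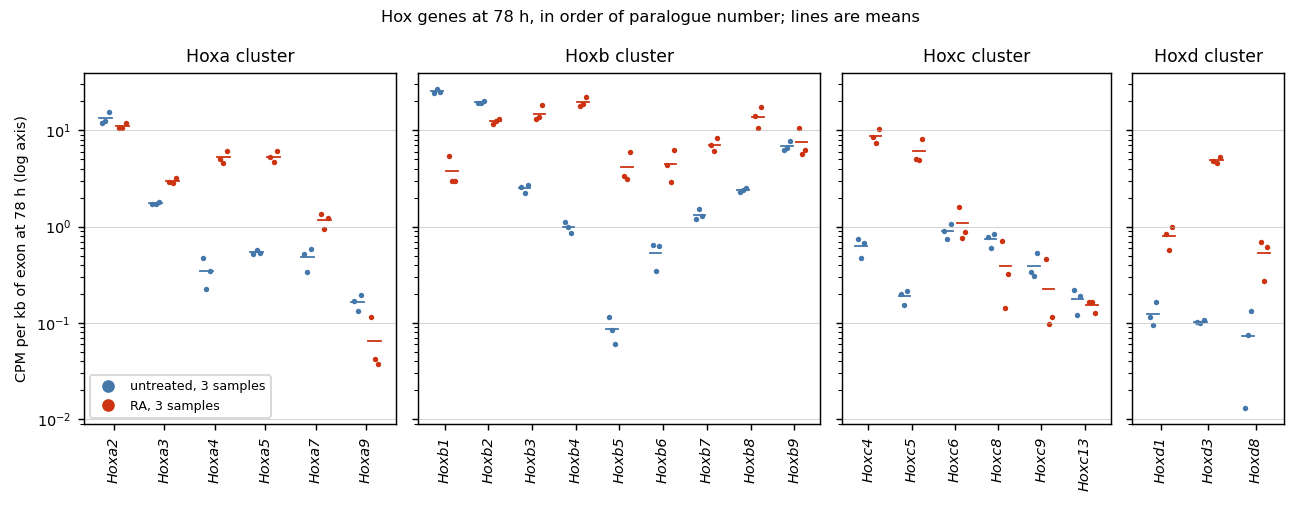
CPM per kb of exon (logarithmic y axis) of Hox genes tested at 78 h, by cluster and in order of paralogue number; points are the 3 untreated (blue) and 3 RA-treated (red) samples and lines are means. RA-treated samples lie above untreated ones for, among others, Hoxb3 to Hoxb8, Hoxa4, Hoxa5, Hoxc4, Hoxc5 and the Hoxd genes, and below them for Hoxb1 and Hoxb2.

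None of the 9 tested partners of Hox proteins was called. Meis1 was the nearest to the threshold, at 67.5 ± 2.84 against 119.7 ± 14.3 CPM (log2 fold change 0.84 ± 0.08, adjusted p = 9.4e-06), and Pbx2 followed at 0.81. Several Hox genes overlap transcripts on the opposite strand, among them Hoxb5 with Hoxb5os and Hoxb2 and Hoxb3 with Hoxb3os, and Hoxd3 overlaps Hoxd4 on its own strand. The library kit marks the strand, but the setting of the counting is not given in the sources used here, so that the values of these genes may hold reads of the partner.

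Of 24 genes of RA synthesis, binding, response and degradation, 23 were tested, 5 rose, 4 fell and 14 were not called. The receptor gene Rarb, whose DR5 element is printed above, was at 1.91, 2.38 and 2.12 CPM in the untreated samples and 29.7, 31.6 and 39.3 CPM in the RA-treated samples, and was high in every RA-treated sample (log2 fold change 3.98 ± 0.14, adjusted p = 2.7e-09). Rarb overlaps Top2b on the opposite strand. Stra8, a gene named for its response to RA in germ cells, was at 1.87, 1.46 and 0.892 CPM in the untreated samples and 59.9, 54.7 and 70.8 CPM in the RA-treated samples (log2 fold change 5.50 ± 0.18, adjusted p = 1.8e-09). Tgm2, a transglutaminase, rose from 3.44 to 46.3 CPM, a log2 fold change of 3.76. Both of the RA-making enzymes that were called also rose, Aldh1a1 from 0.227 to 5.50 CPM and Aldh1a2 from 0.569 to 3.99 CPM.

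The degrading enzymes did not follow Rarb. Cyp26b1 was at 102, 87.1 and 141 CPM in the untreated samples and 4.29, 5.84 and 2.28 CPM in the RA-treated samples. All 3 RA-treated samples lay far below all 3 untreated samples, with a log2 fold change -4.71 ± 0.24, adjusted p = 6.3e-08. Cyp26c1 also fell, from 2.96 to 0.163 CPM (log2 fold change -4.14 ± 0.31, adjusted p = 1.1e-06). Cyp26a1, with its DR5 element, was at 6.73, 6.78 and 9.37 CPM in the untreated samples and 5.82, 5.66 and 4.06 CPM in the RA-treated samples, and was not called (log2 fold change -0.54 ± 0.17, adjusted p = 0.023). The binding protein gene Crabp1 was at 1166, 1232 and 1187 CPM in the untreated samples and 483, 477 and 387 CPM in the RA-treated samples (log2 fold change -1.4 ± 0.08, adjusted p = 1.2e-07). Its relative Crabp2 had the opposite sign but did not reach the fold threshold (307 ± 15.2 against 530.4 ± 51.8 CPM, log2 fold change 0.81 ± 0.07, adjusted p = 3.9e-06). Rxrg, which encodes a partner receptor, fell from 7.56 to 0.696 CPM (log2 fold change -3.41 ± 0.23, adjusted p = 5.7e-07). Dhrs3, which turns retinaldehyde back to retinol, was at 1.87, 2.74 and 2.70 CPM in the untreated samples and 3.68, 2.66 and 5.01 CPM in the RA-treated samples and was not called.

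Genes of anterior regions were divided. Otx2, which defines forebrain and midbrain and is also expressed in the epiblast, was at 65.5, 66.3 and 63.2 CPM in the untreated samples and 11.2, 7.95 and 1.93 CPM in the RA-treated samples. The arms were far apart and the RA-treated samples were unequal (log2 fold change -3.17 ± 0.33, adjusted p = 1.7e-05). The part of epiblast cells in the level of Otx2 was not tested. Fgf8, the signal of the midbrain-hindbrain boundary, fell from 2.83 to 0.939 CPM. Fezf2, a forebrain gene, had 36, 36 and 52 counts in the untreated samples and 1, 3 and 3 counts in the RA-treated samples (adjusted p = 1.5e-05). Sp8 fell by 1.00 on the log2 scale (from 56.8 to 28.1 CPM), and was under the fold threshold without RA replicate 1 (-0.92) or untreated replicate 3 (-0.98), with library totals (-0.99) and without the filter on low counts (-0.99). In the same list of 28 forebrain and midbrain genes, of which 18 were tested, 7 rose and 4 fell. Those that rose were Emx2, Vax2, Foxd1, Pax2 (from 1.51 to 7.72 CPM), En2 (from 2.3 to 10.2 CPM), Pax8 (from 1.02 to 3.66 CPM) and Lhx5 (from 1.03 to 6.21 CPM), and the last 4 are also expressed in the hindbrain or spinal cord. The 10 members that were too low to test included Six3, Rax and Nkx2-1.

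Among 18 genes of hindbrain segments, all tested, 2 rose (11.1%) and 6 fell (33.3%), against 7.66% and 4.03% of all genes tested. Egr2, the gene of rhombomeres 3 and 5, was at 25.7, 29.0 and 54.2 CPM in the untreated samples and 0.637, 0.785 and 0.315 CPM in the RA-treated samples. The arms did not overlap (log2 fold change -5.93 ± 0.36, adjusted p = 2.2e-07). The mean was 0.302 CPM on day 2, and with RA it was at most 1.46 CPM at any time point, while without RA it reached 36.3 CPM at 78 h. Phox2a, a gene of visceral motor neurons of the hindbrain, fell from 4.58 to 1.80 CPM. The ephrin receptor genes Epha7 and Epha4, both expressed in segments, fell from 172 to 63.6 CPM and from 191 to 93.6 CPM; Epha4 was under the fold threshold without RA replicate 1 (-0.97), RA replicate 3 (-0.9998) or untreated replicate 3 (-0.92) and with library totals (-0.996). Gbx2, a gene of the anterior hindbrain, fell from 33.5 to 14.1 CPM. Zfp503 rose from 37.3 to 113 CPM (log2 fold change 1.62 ± 0.06, adjusted p = 3.8e-09). Nr2f1 (log2 fold change 0.55) was not called.

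Genes of the posterior axis were likewise divided: of 12 tested, 6 rose and 3 fell. Nkx1-2, which marks the progenitors at the tail end of the spinal cord, was at 19.2, 27.1 and 24.6 CPM in the untreated samples and 1.01, 0.853 and 0.595 CPM in the RA-treated samples (log2 fold change -4.81 ± 0.18, adjusted p = 4.6e-09). T, which those progenitors share with mesoderm, fell from 3.45 to 0.732 CPM. Wnt3a rose from 0.770 to 7.19 CPM, Cdx2 from 1.94 to 6.59 CPM, Cdx1 from 0.278 to 1.62 CPM and Wnt5a from 4.31 to 18.3 CPM. Wnt3a is also made by the roof plate, and Cdx2 by trophoblast, whose markers moved with the arm as given above.

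Ventral neural tube genes were higher with RA almost throughout. Of 16 tested genes, 12 rose and only Sulf1 fell, with a median log2 fold change of 2.21 against 0.0015 over all genes. Shh, the signal made by notochord and floor plate, had 3, 4 and 3 counts in the untreated samples and 235, 254 and 217 counts in the RA-treated samples. In CPM this was 0.108, 0.119 and 0.0836 against 6.81, 8.67 and 7.60 (log2 fold change 6.19 ± 0.24, adjusted p = 7.5e-09). Foxa2, which defines the floor plate, was at 0.468, 0.416 and 0.558 CPM in the untreated samples and 10.3, 11.2 and 13.1 CPM in the RA-treated samples (log2 fold change 4.58 ± 0.18, adjusted p = 7.6e-09). Foxa1 rose from 0.462 to 14.8 CPM (log2 fold change 5.03 ± 0.18, adjusted p = 4.0e-09). Foxa1 and Foxa2 are also endoderm genes, and among the endoderm markers summed above Sox17 (log2 fold change 4.87) and Gata6 (2.6) rose, while Gata4 (-0.16) and Hnf4a (0.88) were not called. The part of endoderm in the levels of Foxa1 and Foxa2 was not tested.

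Progenitor domains next to the floor plate were represented by lower counts. Olig2, the gene of motor neuron progenitors, had 2, 8 and 4 counts in the untreated samples and 146, 152 and 256 counts in the RA-treated samples (log2 fold change 5.39 ± 0.42, adjusted p = 1.6e-06). Nkx6-1 was at 6.29, 6.66 and 5.6 CPM in the untreated samples and 12.7, 16.7 and 20.5 CPM in the RA-treated samples (log2 fold change 1.44 ± 0.16, adjusted p = 3.2e-05), and was therefore present in both arms. Nkx6-2 and Nkx2-9 rose from 1.4 to 6.59 CPM and from 1.24 to 6.93 CPM. Nkx2-2, a gene of the most ventral of these progenitor domains, had 5, 3 and 4 counts in the untreated samples and 13, 20 and 14 counts in the RA-treated samples. It was called with all samples (log2 fold change 2.03 ± 0.45, adjusted p = 0.0034) but lost the call without RA replicate 2 (adjusted p = 0.022), untreated replicate 2 (0.022) or untreated replicate 3 (0.017), and with DESeq2 (0.016).

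Genes of the Shh pathway, both targets and components, rose in part: 4 of 13 tested genes were called, all higher. Gli1, the standard readout of the pathway, was at 9.75, 8.47 and 8.20 CPM in the untreated samples and 41.9, 44.6 and 49.7 CPM in the RA-treated samples. It was well separated between arms (log2 fold change 2.39 ± 0.10, adjusted p = 8.2e-09). Ptch1, the receptor, was at 122, 126 and 136 CPM in the untreated samples and 256, 293 and 309 CPM in the RA-treated samples (log2 fold change 1.17 ± 0.07, adjusted p = 2.2e-07). Hhip, an inhibitor that binds the ligand, and Gas1, a co-receptor, rose from 1.73 to 9.30 CPM and from 37.9 to 81.2 CPM. The transducer gene Smo (-0.07) and the effector genes Gli2 (-0.70) and Gli3 (0.40) were not called.

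Of 18 tested dorsal genes, 9 rose and 3 fell. Wnt1, a signal of the roof plate and dorsal midline, was at 0.252, 0.0595 and 0.390 CPM in the untreated samples and 7.27, 7.92 and 6.69 CPM in the RA-treated samples (log2 fold change 4.94 ± 0.31, adjusted p = 2.6e-07). Lmx1a, which specifies the roof plate, had 7, 1 and 8 counts in the untreated samples and 93, 69 and 48 counts in the RA-treated samples (log2 fold change 3.76 ± 0.42, adjusted p = 2.6e-05). Msx1, a target of BMP signals in the dorsal tube, was at 0.863, 1.28 and 1.03 CPM in the untreated samples and 20.1, 19.5 and 20.2 CPM in the RA-treated samples. The samples of each arm were close together (log2 fold change 4.24 ± 0.13, adjusted p = 1.5e-09). Zic1 rose from 12.6 to 88.2 CPM, Msx3 from 6.09 to 21.8 CPM and Pax3 from 22.3 to 49.6 CPM. Pax7, which covers the dorsal progenitors more broadly, was at 21.5, 20.0 and 22.9 CPM in the untreated samples and 24.9, 27.1 and 24.0 CPM in the RA-treated samples and was not called (log2 fold change 0.25 ± 0.08, adjusted p = 0.019). Among those that fell were Zic2 (from 114 to 51.4 CPM), which is also expressed in the epiblast, and Olig3 (from 34.5 to 15.2 CPM). Between the poles of the tube, 3 of 7 tested genes rose, with Prdm13 from 0.815 to 19.2 CPM, Dbx1 from 21.2 to 49.0 CPM and Dbx2 from 1.53 to 3.33 CPM, and Pax6 was not called (95.5 ± 6.37 against 118 ± 17.3 CPM). Dbx1 was under the fold threshold without RA replicate 3 (0.97), and Dbx2 was not called without RA replicate 2 (0.99) or untreated replicate 3 (0.91).

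Of 14 tested general progenitor genes, 2 rose (14.3%) and none fell, against 7.66% and 4.03% of all genes tested. Sox2 was at 213, 219 and 228 CPM in the untreated samples and 257, 228 and 219 CPM in the RA-treated samples and was not called (log2 fold change 0.11 ± 0.06, adjusted p = 0.16). Sox1 was at 149.9, 175 and 183 CPM in the untreated samples and 93.8, 96.4 and 95.9 CPM in the RA-treated samples, and the arms did not overlap, but the difference was under the fold threshold (log2 fold change -0.81 ± 0.06, adjusted p = 1.4e-06). Pou3f3 was at 22.2, 19.7 and 23.4 CPM in the untreated samples and 134, 155 and 171 CPM in the RA-treated samples (log2 fold change 2.83 ± 0.10, adjusted p = 2.9e-09), and Vim, an intermediate filament of progenitors, rose from 273 to 664 CPM. In the Notch pathway, which holds cells in the progenitor state, 3 of 15 tested genes rose (20%) and none fell. These were Hey1 (from 7.61 to 15.8 CPM), Heyl (from 0.152 to 0.700 CPM) and Dll4 (from 0.850 to 4.54 CPM). Notch1 (0.53), Dll1 (0.74), Hes1 (-0.08) and Hes5 (0.46) were not called. Hey1 was under the fold threshold without untreated replicate 2 (0.996).

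Of 29 tested transcription factors of neurogenesis, 20 rose (69.0%) and none fell, with a median log2 fold change of 1.75. The proneural factors, which commit progenitors to a neuronal fate, were among them. Neurog1 was at 1.73, 1.72 and 1.48 CPM in the untreated samples and 12.3, 15.6 and 19 CPM in the RA-treated samples (log2 fold change 3.27 ± 0.18, adjusted p = 1.1e-07). Neurog2 was at 0.791, 0.714 and 0.836 CPM in the untreated samples and 6.84, 8.46 and 9.88 CPM in the RA-treated samples (log2 fold change 3.43 ± 0.19, adjusted p = 1.2e-07). In both genes the lowest RA-treated sample lay several times above the highest untreated sample. Nhlh2 and Nhlh1, which follow in newborn neurons, rose from 1.26 to 23.4 CPM and from 4.81 to 20.1 CPM.

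Factors of particular neuron classes rose to different levels. Gata2, which acts in V2b interneurons and also in trophoblast, was at 2.81, 2.05 and 2.01 CPM in the untreated samples and 45.6, 48.0 and 60.0 CPM in the RA-treated samples (log2 fold change 4.51 ± 0.15, adjusted p = 2.2e-09), and Gata3 rose from 1.67 to 13.5 CPM; trophoblast genes rose too, as described below. Lhx1 (from 0.559 to 6.92 CPM) and Lbx1 (from 0.368 to 4.74 CPM) mark interneurons of the hindbrain and spinal cord. Motor neuron genes changed less: Isl1 was at 1.26, 1.19 and 1.45 CPM in the untreated samples and 3.01, 3.24 and 2.14 CPM in the RA-treated samples (log2 fold change 1.12 ± 0.21, adjusted p = 0.0012), and Mnx1 at 0.899, 1.04 and 0.864 CPM in the untreated samples and 1.94, 1.77 and 2.45 CPM in the RA-treated samples (log2 fold change 1.15 ± 0.22, adjusted p = 0.0013). Isl1 lost its call in a fit of all 45 libraries, with an adjusted p of 0.0103. Neurod1 (-0.41), Lhx3 (0.12) and Isl2 (0.45) were not called.

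Structural genes of neurons were divided. Of 22 tested, 7 rose and 2 fell. Dcx, which binds microtubules in migrating neurons, was at 5.79, 4.97 and 3.93 CPM in the untreated samples and 40.5, 47.0 and 54.8 CPM in the RA-treated samples (log2 fold change 3.30 ± 0.15, adjusted p = 1.9e-08). Tubb3, neuronal tubulin, was at 63.8, 69.6 and 70.0 CPM in the untreated samples and 132, 139.6 and 146 CPM in the RA-treated samples (log2 fold change 1.05 ± 0.06, adjusted p = 7.4e-08). Nefm and Map2 rose from 25.2 to 115 CPM and from 25.8 to 74.2 CPM, and Elavl4, an RNA-binding protein of young neurons, from 13.9 to 31.2 CPM. Elavl3 was at 21.3, 20.0 and 20.3 CPM in the untreated samples and 37.2, 37.7 and 44.5 CPM in the RA-treated samples, just under the fold threshold (log2 fold change 0.97 ± 0.08, adjusted p = 3.0e-06), and was called without RA replicate 1 (1.02) or RA replicate 2 (1.00). Stmn2, which is known from axon growth, went the other way, at 157, 164 and 169.5 CPM in the untreated samples and 51.0, 44.2 and 35.0 CPM in the RA-treated samples (log2 fold change -1.89 ± 0.10, adjusted p = 9.6e-08). At 18 h it was already at 80.9 ± 0.473 CPM untreated and 47.0 ± 2.69 CPM with RA. Genes of mature synapses and transmitter use, such as Snap25 (-0.02), Slc17a6 (-0.25) and Gad2 (-0.67), were not called.

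Guidance genes moved in both directions, with 13 of 41 tested rising and 6 falling. Robo3, the receptor that lets commissural axons cross the midline, was at 2.45, 1.87 and 2.20 CPM in the untreated samples and 33.3, 39.9 and 51.8 CPM in the RA-treated samples (log2 fold change 4.28 ± 0.18, adjusted p = 1.2e-08). The netrin receptors Unc5a, Unc5c and Dcc rose from 2.85 to 32.6 CPM, from 1.65 to 10.4 CPM and from 5.85 to 14.3 CPM, and the midline repellents Slit1 and Slit2 rose from 13.6 to 60.2 CPM and from 11.7 to 48.9 CPM. The 6 that fell were all Eph receptors, among them Epha2 (from 58.6 to 21.2 CPM) and Epha1 (from 24.1 to 7.67 CPM). Neural crest genes rose in 8 of 15 cases: Tfap2a from 0.809 to 4.96 CPM, Tfap2b from 3.02 to 9.65 CPM and Ednrb from 59.9 to 160.4 CPM were higher, Foxd3, which is also expressed in the epiblast, fell from 5.13 to 1.70 CPM, and Sox10 had 9, 7 and 21 counts in the untreated samples and 35, 20 and 22 counts in the RA-treated samples and was not called, although it was without untreated replicate 3 (log2 fold change 1.64) and without the filter on low counts (1.15). None of the 7 tested glial genes was called, and of 7 tested placode genes 2 rose, with Eya1 from 6.22 to 13.5 CPM, and Foxi3 (from 4.39 to 0.392 CPM) fell.

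**Figure D3:**
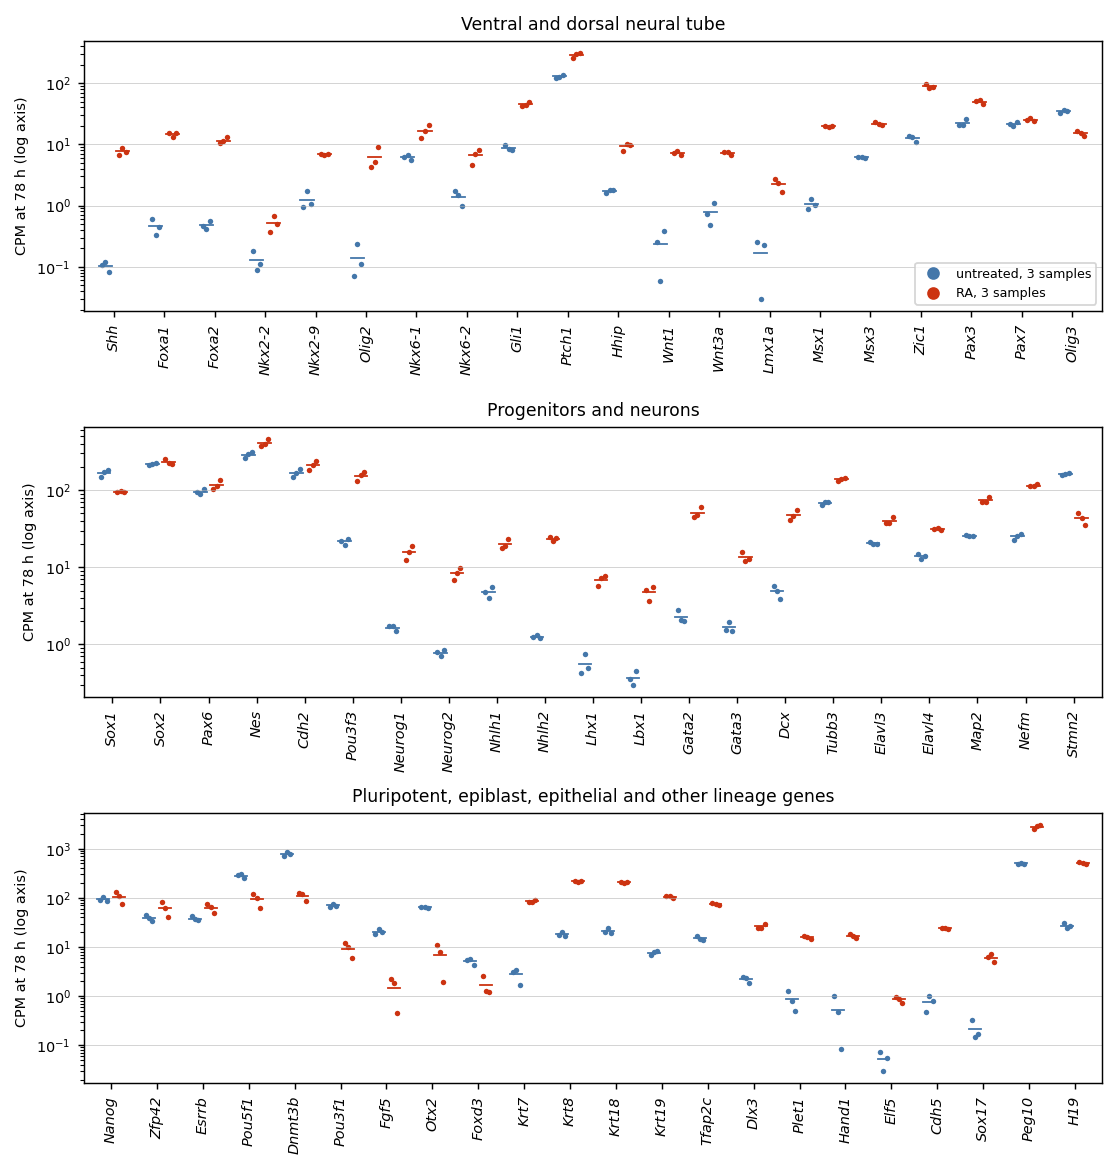
CPM in each sample at 78 h (logarithmic y axis) for genes of the ventral and dorsal neural tube (top), of progenitors and neurons (middle) and of pluripotent cells, epiblast, epithelia and other lineages (bottom); points are the 3 untreated (blue) and 3 RA-treated (red) samples and lines are means. Shh, Foxa2, Wnt1, Msx1, Neurog1, Neurog2 and the keratins lie higher in all RA-treated samples, whereas Otx2, Dnmt3b, Fgf5 and Stmn2 lie lower.

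Pluripotency genes remained expressed in both arms. Of 16 tested, 3 rose (18.8%) and 1 fell (6.25%), against 7.66% and 4.03% of all genes tested. Pou5f1 was at 285, 310.2 and 253 CPM in the untreated samples and 122, 99.2 and 63.3 CPM in the RA-treated samples (log2 fold change -1.56 ± 0.18, adjusted p = 3.1e-05). Nanog was at 91.4, 103 and 85.0 CPM in the untreated samples and 131, 110.5 and 75.3 CPM in the RA-treated samples, and the arms overlapped (log2 fold change 0.20 ± 0.15, adjusted p = 0.32). Zfp42 (38.8 ± 5.21 against 61.5 ± 20.1 CPM) and Esrrb (37.7 ± 3.64 against 63.3 ± 12.6 CPM) were not called either, whereas Tbx3 rose from 3.30 to 24.8 CPM and Klf4 from 6.61 to 14.4 CPM, which was under the fold threshold without untreated replicate 3 (0.95).

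The genes of the early epiblast, the stage after ES cells leave naive pluripotency, went down or were not called: 6 of 12 fell and none rose, with a median log2 fold change of -0.77. Dnmt3b, a de novo DNA methyltransferase, was at 715, 857 and 781 CPM in the untreated samples and 126, 117 and 86.7 CPM in the RA-treated samples (log2 fold change -2.82 ± 0.12, adjusted p = 1.2e-08). Fgf5 was at 18.1, 23.3 and 19.8 CPM in the untreated samples and 2.20, 1.81 and 0.455 CPM in the RA-treated samples (log2 fold change -3.73 ± 0.29, adjusted p = 1.6e-06). Pou3f1 fell from 69.8 to 9.21 CPM and Lin28a from 1036 to 403 CPM. RA replicate 3 had the lowest of the 3 RA values for Pou5f1, Nanog, Zfp42, Esrrb, Dnmt3b, Pou3f1, Fgf5 and Otx2, and the called ones among them kept their call without it. Untreated replicate 3 was likewise the lowest of its arm for Pou5f1, Nanog, Zfp42, Esrrb and Otx2, but not for Dnmt3b or Fgf5.

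Keratins and other genes of surface ectoderm and trophoblast were higher with RA. Of 18 tested, 11 rose and none fell, with a median log2 fold change of 2.33, and the summed level of the list was 140 to 166 CPM in untreated and 807 to 844 CPM in RA-treated samples. Krt8, a keratin of simple epithelia, was at 17.4, 19.7 and 17.1 CPM in the untreated samples and 223, 213 and 222 CPM in the RA-treated samples (log2 fold change 3.62 ± 0.07, adjusted p = 5.4e-11). Its partner Krt18 was at 19.9, 24.5 and 19.2 CPM in the untreated samples and 207, 201 and 212 CPM in the RA-treated samples (log2 fold change 3.30 ± 0.08, adjusted p = 3.6e-10). Krt7 was at 3.13, 3.48 and 1.70 CPM in the untreated samples and 81.5, 83.8 and 92.1 CPM in the RA-treated samples (log2 fold change 4.98 ± 0.16, adjusted p = 2.0e-09), and Krt19 rose from 7.71 to 106 CPM. The arms did not overlap for any of these keratins, and Krt7 was the most uneven of them among untreated samples. Krt5 and Krt14, the keratins of stratified skin, had at most 11 counts in any sample and were not tested.

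Trophoblast genes were in the same list. Hand1, a factor of giant cells, was at 1.01, 0.476 and 0.0836 CPM in the untreated samples and 18.1, 16.5 and 15.2 CPM in the RA-treated samples (log2 fold change 5.09 ± 0.35, adjusted p = 5.7e-07). Tfap2c rose from 15 to 74.6 CPM, Dlx3 from 2.22 to 26.1 CPM and Plet1 from 0.866 to 15.7 CPM. Elf5, a defining factor of trophoblast stem cells, had 2, 1 and 2 counts in the untreated samples and 33, 26 and 21 counts in the RA-treated samples (adjusted p = 2.3e-05), which was 0.956, 0.887 and 0.735 CPM in the latter. Grhl3 (6.11 ± 0.506 against 9.85 ± 1.32 CPM) was not called.

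These values led to a further list of 43 placental and trophoblast genes, drawn up after values at 78 h had been seen, so that its counts are a description only. Of 37 tested, 32 were called higher and none lower. Rhox9 was at 3.38, 2.97 and 2.29 CPM in the untreated samples and 68.4, 64.8 and 73.7 CPM in the RA-treated samples (log2 fold change 4.61 ± 0.11, adjusted p = 3.6e-10), although reads may be shared with its close copy Rhox6 (from 3.09 to 73.3 CPM). Nrk rose from 16.2 to 254 CPM, Plac1 from 0.762 to 17.4 CPM, Gjb2 from 2.36 to 35.7 CPM and Syna, the gene of a cell-fusing syncytin, from 0.250 to 7.65 CPM. Serpinb9b (from 1.47 to 35.4 CPM) and Serpinb9e (from 0.440 to 12.6 CPM) are also near copies of each other. Eomes, which trophoblast stem cells need, was not called (4.74 ± 0.674 against 5.94 ± 1.58 CPM), and Prl3d1 and Prl2c2, hormones of trophoblast giant cells, were too low to test.

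Imprinted genes, expressed from a single parental allele and often active in placenta, formed a second list drawn up in the same way. Of 37 tested, 16 were called higher and 5 lower. Peg10, needed for the placenta, was at 491, 522 and 493 CPM in the untreated samples and 2504, 2858 and 3019 CPM in the RA-treated samples (log2 fold change 2.49 ± 0.08, adjusted p = 1.3e-09), the largest rise of any called gene in mean CPM. H19 was at 30.2, 24.7 and 26.8 CPM in the untreated samples and 529, 517 and 486 CPM in the RA-treated samples (log2 fold change 4.25 ± 0.09, adjusted p = 1.2e-10), and its neighbour Igf2 rose from 3.19 to 44.0 CPM. Cdkn1c, an inhibitor of the cell cycle, was at 60.0, 58.3 and 60.4 CPM in the untreated samples and 367, 341 and 389 CPM in the RA-treated samples (log2 fold change 2.63 ± 0.06, adjusted p = 2.5e-10), Plagl1 rose from 22.0 to 129 CPM, and Peg3 from 257 to 672 CPM. On the Dlk1-Dio3 domain the signs differed: the noncoding Meg3, Rian and Mirg fell from 783 to 203 CPM, from 826 to 216 CPM and from 44.0 to 10.6 CPM, while Dlk1 and Dio3 rose from 5.91 to 15.1 CPM and from 0.476 to 10.5 CPM. Whether alleles were used differently was not measured.

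Of the other germ layers, endoderm had 5 of 10 tested genes higher and mesoderm, blood and vessel 5 of 16 higher and 1 lower. Sox17 was at 0.324, 0.149 and 0.167 CPM in the untreated samples and 6.20, 7.03 and 5.04 CPM in the RA-treated samples (log2 fold change 4.87 ± 0.27, adjusted p = 1.2e-07), while Gata4 (1.92 ± 0.102 against 1.71 ± 0.220 CPM) and Hnf4a (0.315 ± 0.0739 against 0.559 ± 0.255 CPM) were not called. Cdh5, a cadherin of endothelium, was at 0.468, 1.01 and 0.809 CPM in the untreated samples and 24.8, 23.8 and 23.6 CPM in the RA-treated samples (log2 fold change 4.96 ± 0.16, adjusted p = 1.9e-09). Kdr rose from 1.10 to 3.52 CPM, and Pecam1 was not called (16 ± 2.05 against 27.1 ± 6.15 CPM). Tal1 (0.630 ± 0.264 against 0.308 ± 0.176 CPM) was not called.

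Signalling genes were tested by pathway. Of 37 tested Wnt genes, 14 rose and 5 fell. Wnt8a, a ligand of the early posterior embryo, was at 149, 182 and 168 CPM in the untreated samples and 5.97, 4.88 and 3.26 CPM in the RA-treated samples (log2 fold change -5.11 ± 0.14, adjusted p = 6.4e-10). Wnt ligands that rose included Wnt1, Wnt3a and Wnt5a, given above, with Wnt4 (from 3.00 to 11 CPM), Wnt6 (from 0.729 to 4.84 CPM), Wnt7a (from 6.42 to 15.2 CPM) and Wnt7b (from 9.56 to 25.7 CPM). Lef1, a transcription factor and target of the pathway, was at 51.9, 66.4 and 58.4 CPM in the untreated samples and 16.8, 15.4 and 6.02 CPM in the RA-treated samples (log2 fold change -2.18 ± 0.25, adjusted p = 3.1e-05), the secreted inhibitor Sfrp1 fell from 504 to 152 CPM, the target Sp5 rose from 0.961 to 9.86 CPM, and the target Axin2 was not called (0.18). In the BMP and TGF-beta pathways 11 of 27 tested genes rose, against 1 that fell. Id3 was at 23.8, 26.8 and 29.4 CPM in the untreated samples and 148, 143 and 173 CPM in the RA-treated samples (log2 fold change 2.55 ± 0.09, adjusted p = 2.7e-09), and Id1 rose from 11.1 to 47.7 CPM; Id genes respond to BMP signals. Bmp2, Bmp4 and Bmp6 rose from 0.213 to 2.59 CPM, from 3.70 to 13.5 CPM and from 1.18 to 5.87 CPM, Nog, which binds BMPs, from 0.486 to 2.63 CPM, and Fst, which binds activin, fell from 80.8 to 10.3 CPM. In the FGF pathway 3 of 27 tested genes rose (11.1%) and 4 fell (14.8%), against 7.66% and 4.03% of all genes tested. The feedback genes Dusp6 (-0.01), Spry2 (-0.98) and Spry4 (0.07) were not called; Spry2 passed the fold threshold without RA replicate 1 (-1.11), RA replicate 2 (-1.05) or untreated replicate 3 (-1.04) and with the replicate block (-1.01).

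Enpp2 encodes autotaxin, the enzyme that makes lysophosphatidic acid (LPA), a pathway the study followed up. Of 13 tested LPA genes, 2 rose and 2 fell (15.4% each), against 7.66% and 4.03% of all genes tested. Enpp2 was at 9.93, 13.4 and 10.009 CPM in the untreated samples and 3.39, 3.62 and 2.73 CPM in the RA-treated samples. Each RA-treated sample was below each untreated sample (log2 fold change -1.76 ± 0.16, adjusted p = 4.5e-06). Lpar4, an LPA receptor, was at 85.3, 74.2 and 70.7 CPM in the untreated samples and 24.5, 20.8 and 17.3 CPM in the RA-treated samples (log2 fold change -1.86 ± 0.12, adjusted p = 3.0e-07). Lpar3 and Lpar5 rose from 0.820 to 2.07 CPM and from 0.460 to 1.45 CPM, and Lpar1 (17.8 ± 1.29 against 20.1 ± 1.15 CPM), Lpar2 (0.11) and Lpar6 (57.7 ± 5.50 against 38.3 ± 3.94 CPM) were not called. The kinases Rock1 (log2 fold change 0.07 ± 0.15, adjusted p = 0.73) and Rock2 (log2 fold change 0.24 ± 0.10, adjusted p = 0.057), which act on myosin downstream of the receptors, were not called, and Rock1 had no stable sign, at -0.13 without RA replicate 1 and -0.063 without untreated replicate 3. Of 25 tested genes of the apical surface, lumen and planar polarity, none rose and 2 (8%) fell, against 7.66% and 4.03% of all genes tested. The 2 that fell, Mylk and Myl9, act in myosin control. Mylk was at 66.3, 59.1 and 79.0 CPM in the untreated samples and 25.3, 34.5 and 25.6 CPM in the RA-treated samples (log2 fold change -1.25 ± 0.13, adjusted p = 1.4e-05), and Myl9 fell from 12.6 to 5.72 CPM. Podxl, an apical surface protein, was at 202, 229.8 and 233 CPM in the untreated samples and 184, 191 and 185 CPM in the RA-treated samples and was not called (log2 fold change -0.23 ± 0.05, adjusted p = 0.0051). Reads of Enpp2 may be mixed with those of Gm26684 on the opposite strand.

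**Figure D4:**
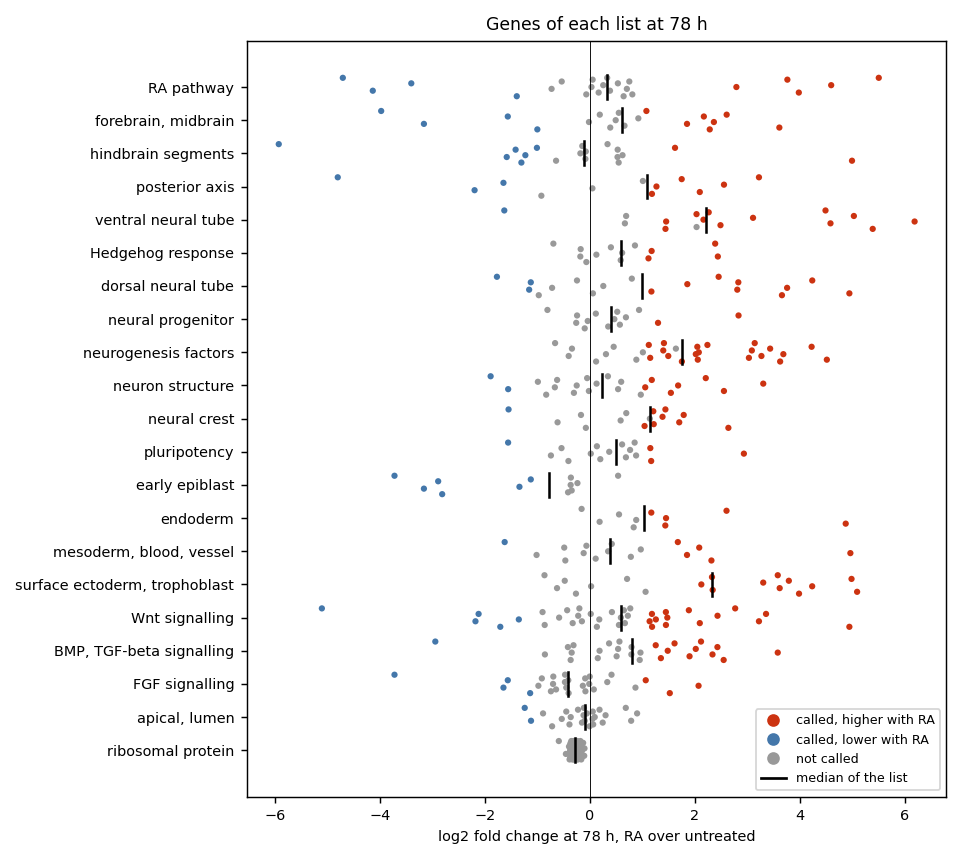
Log2 fold change at 78 h (x axis, RA over untreated) of each tested gene in 21 lists (rows); red genes were called higher with RA, blue genes lower, grey genes were not called, and black bars are list medians. Neurogenesis factors, ventral genes and the list of surface ectoderm and trophoblast lie mostly to the right with medians of 1.75, 2.21 and 2.33, the early epiblast to the left at -0.77, and ribosomal protein genes in a narrow band at -0.29.

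The 12 largest rises among genes called with a mean of at least 5 CPM were led by Arg1, an arginase, at 0.288, 0.357 and 0.335 CPM in the untreated samples and 21.3, 20.7 and 24.0 CPM in the RA-treated samples (log2 fold change 6.07 ± 0.15, adjusted p = 3.6e-10), and Sst, the gene of the neuropeptide somatostatin, at 0.252, 0.208 and 0.335 CPM in the untreated samples and 16.2, 12.7 and 21.3 CPM in the RA-treated samples (log2 fold change 5.96 ± 0.27, adjusted p = 2.1e-08). Pparg, a nuclear receptor of fat cells and placenta, and Vtn, the matrix protein vitronectin, rose from 0.338 to 13.6 CPM and from 0.331 to 13.3 CPM. The other 8 included Hoxb5, Hoxd3, Stra8, Hand1, Foxa1 and Hoxc5. The largest fall was in Kcnj3, a potassium channel, at 36.3, 37.1 and 32.4 CPM in the untreated samples and 1.04, 0.375 and 0.105 CPM in the RA-treated samples (log2 fold change -6.01 ± 0.28, adjusted p = 2.8e-08). It was followed by Egr2, Wnt8a, Nkx1-2 and Cyp26b1. Rln1, the hormone relaxin, fell from 14.3 to 0.528 CPM, Jph4, a junctophilin of neurons, from 36.2 to 1.6 CPM, Vrtn from 39.5 to 2.07 CPM, and Pim2, a kinase, was at 334, 397 and 344 CPM in the untreated samples and 27.3, 24.0 and 14.3 CPM in the RA-treated samples (log2 fold change -4.01 ± 0.17, adjusted p = 1.6e-08). In mean CPM the largest falls were Slc2a3, Crabp1, Dnmt3b, Lin28a and Rian, and the largest rises were Peg10, H19, Ccnd2, Peg3 and Vim. Slc2a3, a glucose transporter of neurons and placenta, was at 1795, 2055 and 2019.5 CPM in the untreated samples and 1146, 999.97 and 673 CPM in the RA-treated samples (log2 fold change -1.04 ± 0.15, adjusted p = 1.5e-04), and was under the fold threshold without RA replicate 3 (-0.85). Ccnd2, a cyclin of progenitors, was at 439, 449 and 508 CPM in the untreated samples and 844, 937 and 1038 CPM in the RA-treated samples (log2 fold change 1.03 ± 0.08, adjusted p = 1.4e-06), and was under it without RA replicate 3 (0.95), untreated replicate 1 (0.99) or untreated replicate 2 (0.99).

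Most calls were shared with the time point before. At 66 h, where each arm has its own 3 samples, 1200 of 16993 tested genes (7.06%) were called higher and 754 (4.44%) lower. Of the 16655 genes tested at both times, 981 were called higher at both, 79.7% of those higher at 78 h and 85.0% of those higher at 66 h, 516 lower at both (76.9% and 70.8%), and 0 in opposite directions. The RA effect itself differed between the times for 7 genes that were higher (0.0393%) and 2 that were lower (0.0112%) at 78 h, of 17823 tested; at an unadjusted p under 0.05 the numbers were 1028 and 744. Without untreated 78 h replicate 1, the count of 9 was 4. Nefl, a neurofilament gene, had a log2 fold change of -0.59 at 66 h and 0.59 at 78 h, a difference of 1.18 ± 0.09, adjusted p = 1.2e-05. Gap43, a protein of growing axons, went from -0.99 to 0.12 (difference 1.11 ± 0.14, adjusted p = 0.0014). Neither was called at either time, and the overlap of Nefl with Nefm leaves its reads uncertain. The RA effect was also higher at 78 h for Lgals9, a galectin (difference 1.82 ± 0.23, adjusted p = 0.0019), Plbd1, a phospholipase-like gene (difference 1.4 ± 0.21, adjusted p = 0.0079), and Pou2f2, a transcription factor (difference 1.32 ± 0.19, adjusted p = 0.0044). Thbs1, a matrix protein, was at 106 ± 14.5 CPM untreated and 45.6 ± 2.17 CPM with RA at 66 h and 170.0 ± 21.9 against 34.3 ± 1.26 CPM at 78 h (difference -1.09 ± 0.13, adjusted p = 0.0014), and Me3, a mitochondrial malic enzyme, was the other that was lower (difference -1.46 ± 0.17, adjusted p = 0.0014). The remaining genes called were Ebf1 and Nefm, named after their values were seen.

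The RA effect at 18 h was another. At that time, 1348 of 16508 tested genes (8.17%) were called higher and 455 (2.76%) lower. Of 15798 genes tested at both times, 388 were higher at both, 39.1% of those higher at 78 h and 31.1% of those higher at 18 h, and 150 lower at both (23.7% and 37.0%). The RA effect differed for 694 genes that were higher (3.85%) and 1269 that were lower (7.04%) at 78 h than at 18 h, of 18017 tested. Calls in opposite directions were made for 69 genes, of which 49 were higher at 18 h and lower at 78 h and 20 the reverse. All 69 passed the test of the difference. That test uses the same libraries, and opposite calls all but fix its outcome, so that it adds no separate support. The 18 h libraries belong to an earlier series of library numbers than those at 78 h. Each time point is compared with its own controls of the same series. Whether the RA effect differs with time or with the series cannot be told apart.

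Among genes with a mean of at least 5 CPM over the 12 samples of both times, the largest negative differences included genes of RA degradation and 3′ Hox genes. Cyp26b1 was at 0.336 ± 0.114 CPM untreated and 17.5 ± 1.46 CPM with RA at 18 h, a log2 fold change of 5.62, against -4.71 at 78 h (difference -10.35 ± 0.40, adjusted p = 9.1e-12). Hoxb1 was at 4.65 ± 0.112 CPM untreated and 169 ± 4.03 CPM with RA at 18 h (difference -7.93 ± 0.21, adjusted p = 1.3e-13). Cyp26a1 was at 2.75 ± 0.437 CPM untreated and 276 ± 16.9 CPM with RA at 18 h (difference -7.20 ± 0.19, adjusted p = 1.5e-13). For all 3 genes the RA arm was high at 18 h and low at 78 h. Meanwhile the untreated means went from 0.336 to 110 CPM for Cyp26b1, from 4.65 to 58.9 CPM for Hoxb1 and from 2.75 to 7.62 CPM for Cyp26a1. Zfp703 and Dhrs3 had log2 fold changes of 7.04 and 5.31 at 18 h and of -0.08 and 0.64 at 78 h, neither called then. Hoxb2 (-6.0), Hoxb3os (-5.47), Wnt8a (-5.36), Il33 (-4.85) and Nkx1-2 (-4.72) completed the 10 largest negative differences at this level, and Cyp26c1, below it, had a difference of -6.09. Il33, called lower at 78 h (log2 fold change -1.16 ± 0.26, adjusted p = 0.0034), lost that call without RA replicate 3 (adjusted p = 0.013), without untreated replicate 2 (0.018) and with DESeq2 (0.012). Of 22 RA pathway genes tested at 18 h, 11 were called higher and 1 lower. All 9 tested Hoxb genes and all 8 tested Hoxa genes were called higher at 18 h. Of 16 hindbrain genes tested at 18 h, 9 were called higher and 1 lower. The test of the difference also took in list members too low to test at 18 h, such as Egr2. Among the 24 RA pathway genes listed, 12 had a lower and 3 a higher RA effect at 78 h. The RA effect was lower at 78 h for 8 of 10 listed Hoxb genes, 7 of 11 Hoxa genes and 11 of 18 hindbrain genes.

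The 10 largest positive differences at the same level were in other genes. Robo3 had 1.4 ± 0.445 CPM untreated and 1.30 ± 0.233 CPM with RA at 18 h (difference 4.32 ± 0.37, adjusted p = 1.2e-07), Dcx 1.07 ± 0.207 CPM untreated and 0.612 ± 0.00581 CPM with RA (difference 4.02 ± 0.36, adjusted p = 1.9e-07), and Prdm13 a difference of 3.83. Cdh5, Sct, Nxf7, Rhox9, Serpinb9b and Epn3 had differences of 4.68, 4.50, 4.14, 3.86, 5.93 and 5.22. At 18 h Prdm13, Cdh5 and Sct were too low to be tested on their own, and Serpinb9b was called lower with RA. Foxd3 was lower with RA at both times, with log2 fold changes of -5.95 and -1.55 and untreated means of 44.6 CPM at 18 h and 5.13 CPM at 78 h (difference 4.39 ± 0.33, adjusted p = 3.0e-08). Enpp2 was also lower at both, at 27.1 ± 1.94 CPM untreated and 0.583 ± 0.262 CPM with RA at 18 h, with log2 fold changes of -5.52 and -1.76 (difference 3.74 ± 0.28, adjusted p = 2.9e-08). Podxl went from -2.13 at 18 h to -0.23 at 78 h (difference 1.88 ± 0.09, adjusted p = 1.3e-10). Of 25 neurogenesis factors tested at 18 h, 10 were called higher and 2 lower. Among all 32 listed, the RA effect was higher at 78 h for 7 and lower for 2. Of 17 genes of surface ectoderm and trophoblast tested at 18 h, 8 were called higher and 2 lower. Among all 22 listed, including Hand1, which was not tested at 18 h, the effect was higher at 78 h for 9 and lower for 1.

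The levels of 8 genes were followed over all time points. In RA-treated organoids Hoxb1 was at 169 ± 4.03 CPM at 18 h and 8.74 ± 3.25 CPM at 78 h, while in untreated organoids it went from 2.18 ± 0.164 CPM on day 2 to 58.9 ± 2.75 CPM. Krt7 went in the RA arm from 6.96 ± 0.673 CPM at 18 h to 18.8 ± 1.74 CPM at 42 h and 85.8 ± 5.56 CPM at 78 h, and Dcx from 1.26 ± 0.373 CPM at 42 h to 17.7 ± 4.07 CPM at 66 h and 47.4 ± 7.12 CPM at 78 h. Foxa2 in the RA arm was at 13.4 ± 0.257 CPM at 54 h and 11.5 ± 1.42 CPM at 78 h. These courses are descriptions without a test, and a pair of earlier libraries stood apart from their replicates: RA 30 h replicate 2 had 17.9 CPM of Krt7 against 2.06 and 1.47 CPM, and RA 8 h replicate 3 had 0.774 CPM against 3.19 and 3.99 CPM. Among the tests, both entered only the alternative fit of all 45 libraries. They also entered the scaling of CPM and the means drawn over time.

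**Figure D5:**
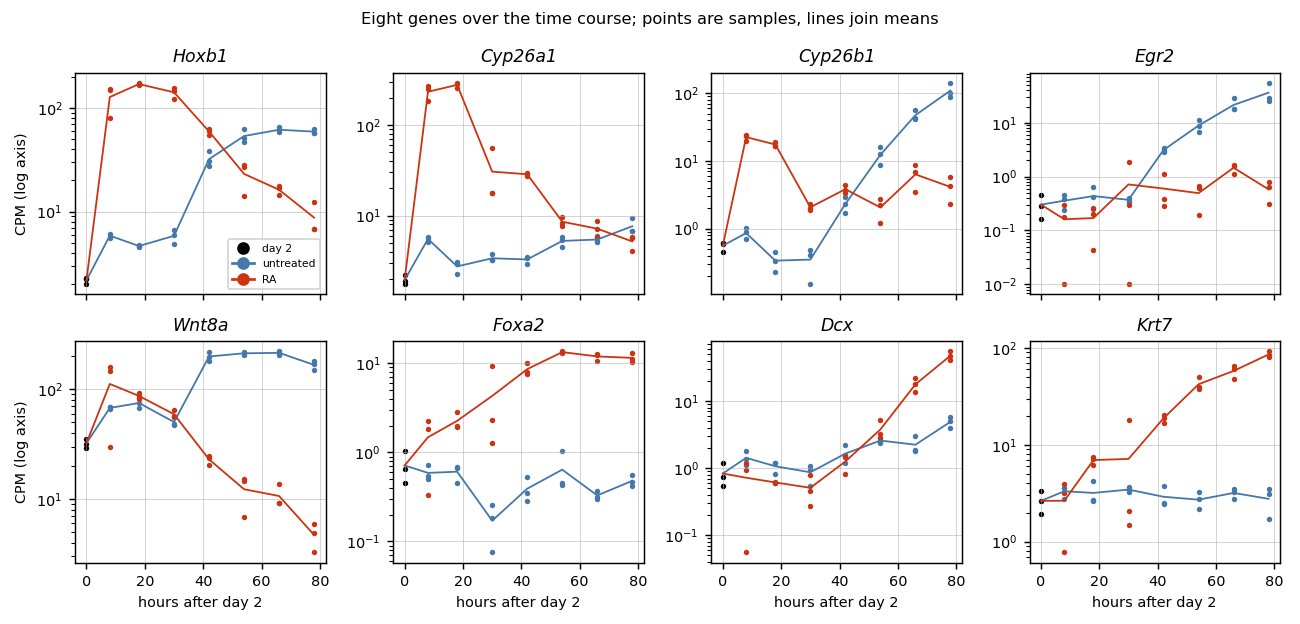
CPM (logarithmic y axes) of Hoxb1, Cyp26a1, Cyp26b1, Egr2, Wnt8a, Foxa2, Dcx and Krt7 against hours after day 2; points are samples on day 2 (black), untreated (blue) and with RA (red), lines join means, and values of 0 are drawn at 0.01. Hoxb1 and Cyp26b1 cross over, with RA above at 18 h and below at 78 h, Cyp26a1 converges, and Dcx parts late. Krt7 samples with RA lie above untreated ones at 18 h and from 42 h on, and on both sides of them at 30 h.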

How the data were processed

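RNA-seq libraries of R1 organoids were analysed from the counts that the authors deposited, which are whole reads per gene without normalization or pooling. According to the labels and methods, the authors trimmed reads with Trim Galore 0.5.0, removed abundant sequences with Bowtie2 2.3.4.1, aligned to GRCm38 with STAR and counted on Ensembl 94 with featureCounts of Subread 1.6.2, from poly(A)-selected, strand-marking libraries. The setting for strand and for reads that match several places is not given in the sources used here, so that antisense and near-identical genes can share reads. Positions are from GENCODE M21, in which 54495 of the 54532 genes of the table had a symbol.

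Libraries were matched to samples by the library number in the titles. The 6 libraries at 78 h were fitted with edgeR 4.0.16 in R 4.3.3 after TMM normalization and filterByExpr (minimum count 10, minimum total 15), with glmQLFit and glmQLFTest. A call required p under 0.01 after Benjamini-Hochberg adjustment together with a log2 fold change beyond 1, as in the study, which used DESeq2 (here an alternative, version 1.42.0). The SE was taken from the F statistic, as the absolute log2 fold change over the root of F. Differences of the RA effect between times were tested as an interaction over 12 libraries. CPM values use TMM over all 45 libraries. At 78 h, 3 counts correspond to 0.0836 to 0.108 CPM, and such limits cover counting error only, since reads were counted without molecular identifiers and may repeat a molecule. Replicates differed by more than sampling noise in every pair.

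The comparison, its 37 gene lists and the named genes were chosen with earlier results of these data known, and 2 further lists were added after values were seen. Named genes were list members that best show a list, the 12 largest rises and falls in log2 fold change (mean of at least 5 CPM, no overlap between arms, named symbols), the 5 largest each way in mean CPM, the 10 and 5 largest differences each way from 18 h and 66 h (mean of at least 5 CPM over the 12 samples compared, named symbols), and Enpp2, Lpar and Rock genes. Counts were also simulated with 200 genes changed by a log2 change of 2, drawn only from genes above a minimum average level. Of these 200, edgeR recovered 100% at 78 h, with 17003 genes run and 0 false calls. The interaction recovered 99.5% for 18 h (17606 genes run, 5 false calls) and 99.0% for 66 h (17527 genes run, 0 false calls). Recovery of genes with few counts and of changes near the fold threshold was not simulated. The alternatives tried were DESeq2, scaling by library totals or by RLE size factors, other filters and thresholds, a replicate block, a joint fit of all libraries, and leaving out each library in turn. Some genes within the rule are counted in their lists but not reported by name.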

Additional observations from a re-analysis of the deposited data

Results flagged for a closer look

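The RA effect at 78 h differed from that at 18 h for 1963 genes, by a test of the difference itself (edgeR interaction term over 12 libraries, adjusted p under 0.01 and a difference beyond 1 on the log2 scale), with 694 higher and 1269 lower at 78 h. Against 66 h the same test gave 9 genes, 7 higher and 2 lower. Why the effects differ was not tested.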

How the results depend on the processing

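A threshold of 0.05 on the adjusted p alone gave 4337 genes higher and 3674 lower at 78 h, and 664 and 233 with a test against a log2 fold change of 1 (glmTreat). The other alternatives stayed within 1.5 times the counts of 1307 and 688, and leaving out a library gave 1172 to 1288 and 600 to 752. The 9 genes that differed between 78 h and 66 h were 26 with DESeq2, 68 without the filter on low counts and 27 with the replicate block, and 4 (without untreated 78 h replicate 1) to 11 with a library left out; the 1963 genes between 78 h and 18 h were 1751 to 1903. Deviations from the arm means at 78 h had correlations of 0.280, 0.0245 and 0.302 between same-numbered samples of the 2 arms. Their mean was 0.202, against -0.101 for samples of different number. The labels do not say that the number pairs samples, and the main fit has no term for it. With the replicate block, which fits the number, 1341 genes were called higher, 733 lower and 1870 between 78 h and 18 h. Of the 259 named genes tested, 9 changed sign with a library left out. Their values ranged from -0.19 (without RA replicate 1) to 0.31 for Hoxb9, -0.11 (without RA replicate 1) to 0.48 for Hoxc6, -0.13 to 0.19 for Rock1, -0.17 to 0.062 for Snap25, -0.055 to 0.085 for Dusp6, -0.85 to 0.54 for Lhx3, -0.51 to 0.13 for Slc17a6, -0.061 to 0.033 for Top2a and -0.20 to 0.034 for Zfp703. Dusp6 also changed sign with library totals (0.010) and without the filter (0.0045). None of these genes was called. With a library left out, 20 values of named genes lost a call and 9 gained one. Hoxa9 was also called lower without the filter (-1.27) and with the block (-1.35). Except where an alternative uses fewer samples or genes, the cause of a change was not tested. Levels near 3 counts, such as those of Shh and Elf5 in untreated organoids, limit the size of their fold changes.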

Other observations

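Of 29 tested cell cycle genes, 5 were called higher with RA (17.2%) and none lower, against 7.66% and 4.03% of all genes tested. Mki67 was at 573, 570.1 and 523 CPM in the untreated samples and 611, 588 and 594 CPM in the RA-treated samples (log2 fold change 0.12 ± 0.06, adjusted p = 0.11), and Top2a had a log2 fold change of 0.01. Apart from Ccnd2, those called were inhibitors or genes of cell cycle exit: Cdkn1c, Cdkn2a (from 2.22 to 12.7 CPM), Cdkn2c (from 2.01 to 5.30 CPM) and Gadd45g (from 7.25 to 22.7 CPM). All 77 ribosomal protein genes had a log2 fold change below 0, between -0.60 and -0.11, and none was called. Among 21 tested genes of glycolysis and hypoxia, 1 was called higher and 4 lower: Ndrg1 rose from 18.7 to 72.5 CPM, and Adm was at 6.91, 8.65 and 8.31 CPM in the untreated samples and 1.77, 2.46 and 0.735 CPM in the RA-treated samples (log2 fold change -2.24 ± 0.28, adjusted p = 6.0e-05). Of 18 stress and p53 genes, 4 were called higher (22.2%) and none lower. They were Jun (from 20.0 to 41.3 CPM, under the fold threshold at 0.997 without RA replicate 3) and Fos (from 1.14 to 2.78 CPM), with Hspa1a and Hspa1b, which are near copies and may share reads. Among cadherins and junction genes, 5 of 23 tested were called higher and 2 lower, with increases of Cdh11 from 10.7 to 37.4 CPM and Cldn4 from 18.6 to 54.5 CPM, while Cdh1 (239 ± 27.3 against 160.4 ± 10.5 CPM) and Cdh2 (169 ± 21.5 against 213 ± 26.6 CPM) were not called. Of 26 matrix genes, 3 were called higher and 3 lower (11.5% each), against 7.66% and 4.03% of all genes tested. Lama1 went from 47.7 to 106 CPM and Col1a1 from 17.2 to 3.55 CPM.

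Xist, the noncoding RNA of X inactivation, was chosen after its values were seen. It was at 35.1, 26.1 and 15.5 CPM in the untreated samples and 66.7, 72.9 and 62.5 CPM in the RA-treated samples (log2 fold change 1.42 ± 0.21, adjusted p = 0.00026).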
